A study of Mus musculus with 6 samples.

Results

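Cytosolic ribosomal protein genes encode the proteins of the ribosome's small and large subunits, and they were followed here in mouse haematopoietic stem and progenitor cells labelled as lacking Runx1 and Runx3. Members were all genes whose symbol is Rpl or Rps with a digit, together with Rplp0, Rplp1, Rplp2 and Rpsa, measured by a probe set that names 1 gene. S6 kinase genes, Rps19bp1, Rpl7l1, Rps27rt and named pseudogenes were left out, and a gene with more than 1 probe set was read from the brightest, by mean signal on the 6 arrays. This gave 61 of 19938 genes, and all 61 were tested, since no filter on signal was applied. They are 21 genes of the small subunit, 33 of the large subunit, 5 named as paralogs of core proteins (Rps4l, Rps27l, Rpl3l, Rpl10l and Rpl39l), and Rps23rg1 and Rpl32l.

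The cells were cKit+Sca1+Lin- (KSL) bone marrow cells, the fraction that holds stem cells and early progenitors. One group came from Runx1fl/fl;Runx3fl/fl;Mx1-Cre+ mice, called DKO, and the other from Runx1fl/fl;Runx3fl/fl;Mx1-Cre- littermates, called WT, with 3 arrays each. The alleles had been crossed into C57BL/6 for a stated minimum of 3 generations, which leaves a mixed background. Both groups thus carry the floxed alleles, and only DKO mice carry Mx1-Cre, a recombinase gene driven by an interferon-responsive promoter that is not limited to blood cells, so deletion and transgene cannot be told apart. Injections of pIpC, a double-stranded RNA analogue that switches Mx1-Cre on, are described in 1 protocol text for both groups as 600 µg on 7 alternate days from 4 weeks of age, although the sample descriptions call the cells untreated. Each WT sample was pooled from 3 mice, how DKO samples were pooled is not stated, and the series counts 6 mice in all. If samples were not separate mice or pools of mice, the p-values measure only the spread between these samples.

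Each ribosome holds 1 copy of nearly every ribosomal protein, so cells make these proteins in matched amounts. Part of this matching lies in translation, because ribosomal protein mRNAs begin with a pyrimidine tract, the terminal oligopyrimidine motif, through which mTOR signalling and the protein Larp1 set their use. Blood formation is sensitive to ribosomal proteins: loss of 1 copy of RPS19 and several others causes Diamond-Blackfan anaemia, and loss of 1 copy of RPS14 contributes to the anaemia of the 5q- syndrome. Array signals speak to RNA levels only, and in bulk samples fewer cells of a type and less RNA per cell cannot be told apart.

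The sequences around the gene starts are shown because the pyrimidine stretch is what most members share. RefSeq start sequences, on the build GRCm38.p6, were matched for 49 of the 61 members. A stretch of at least 7 letters, all C or T and opening with C, overlapped the 50 bases on either side of a start in 40 of these 49 (81.6%), beside 46.5% of all 27025 genes in the table. Capitals mark that stretch, and each window has 30 bases on the gene's own strand. Most of the stretches shown do not open the annotated mRNA. Counted from the annotated start, with negative positions before it, they begin at -53 in Rpsa, -43 in Rps19, 41 in Rpl41, -15 in Rps15a and -20 in Rpl5. Only in Rps6 (-1) and Rplp2 (-4) does the stretch shown begin within 5 bases of the start.
Rpsa: cggaagttCTCCCTTTTTgcttagcctgct
Rps19: ccgtcgttCCCTTTCCCCTggctggcagcg
Rpl41: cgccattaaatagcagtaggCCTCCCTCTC
Rps15a: ccggcccaCTCTCTTTCTgccatcttccct
Rps6: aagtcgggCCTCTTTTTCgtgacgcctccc
Rpl5: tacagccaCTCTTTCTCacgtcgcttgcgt
Rplp2: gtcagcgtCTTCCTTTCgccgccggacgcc
Rplp0: gcctggttCTCCTataaaaggcacacgcgg

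The first 4 windows belong to genes that passed the test described next, and the other 4 to genes that did not. They lie at chr9:120127705-120127734 (Rpsa, plus strand), chr7:24884625-24884654 (Rps19, plus), chr10:128549119-128549148 (Rpl41, minus), chr7:118116141-118116170 (Rps15a, minus), chr4:86857347-86857376 (Rps6, minus), chr5:107900500-107900529 (Rpl5, plus), chr7:141447639-141447668 (Rplp2, plus) and chr5:115559472-115559501 (Rplp0, plus). Rplp0 is shown as a member whose longest stretch has only 5 letters, and that of Rpl41 runs to the end of the sequence in the table. All 4 called members with a sequence held the stretch, as did 36 of the 45 members not called, so it was found on both sides of the threshold. The Runx core motif TGTGGT or TGCGGT, searched on both strands of 300 bases (250 before and 50 after the start), occurred in 0 of the 4 called members and in 8 of all 49 (16.3%), beside 25% of all genes. The motif CCGGAAG, bound by ETS family factors, occurred on either strand in 19 of 49 members (38.8%) and in 9.93% of all genes. These are matches of letters and show no binding.

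Most ribosomal protein genes differed little between DKO and WT. On the log2 scale of the deposited RMA signals, the median difference between DKO and WT was -0.01 over the 61 members and -0.04 over all genes, with 29 members above 0 and 32 below. By limma with Benjamini-Hochberg adjustment over all genes and a threshold of 0.05, 1 member was higher in DKO and 4 were lower, together 8.2% of the members. Over all genes 17.4% were called, 9.71% as higher and 7.69% as lower. Among 111 other genes with a mean signal of at least 11, the range of most members, 23.4% were called (13.5% higher and 9.91% lower), beside 2 of the 45 members in that range (4.44%). Whether these shares differ was not tested. The lower share of members than of all genes was not kept under every setting. With trend and robust variance settings 4 of the 61 members were higher and 7 lower, beside 10% and 7.81% of all genes. The share of members called was then close to that of all genes. An unadjusted p under 0.05 was reached by 15 members (24.6%) and by 30.9% of all genes.

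The differences were small but the replicates were tight. The median SD within a group was 0.0447 for DKO and 0.0449 for WT over the members, beside 0.0985 and 0.125 over all genes and 0.0641 and 0.0637 over the 111 other bright genes. The 3 DKO values all lay above the 3 WT values in 14 members and all below them in 21, together 57.4%, beside 35.8% of all genes, 16.2% above and 19.6% below. Among the other bright genes this share was 51.4%, with 31 above and 26 below. The 95% interval of the difference lay inside ±0.5, a 1.41-fold change, for 54 of 61 members (88.5%), 69.2% of all genes and 74.8% of the other bright genes. The member differences had an SD of 0.191, against 0.33 over all genes and 0.284 over the other bright genes. The median signal of a member lay at percentile 99.8 of all genes, where the highest probe set of any gene averaged 12.89, and whether signals this high understate changes was not tested.

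**Figure D1:**
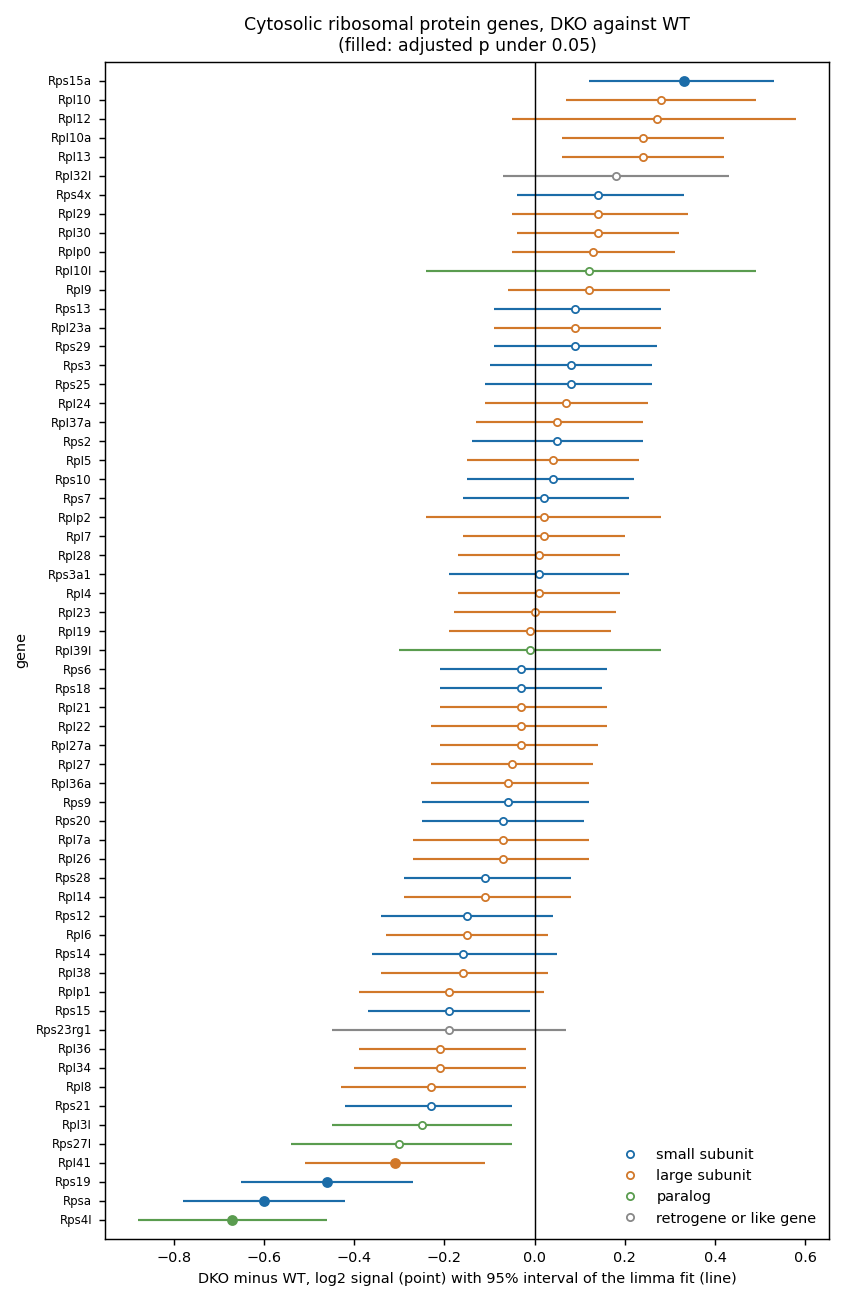
Difference between DKO and WT in log2 signal (x axis) for each of the 61 genes (y axis), with the 95% interval of the limma fit as a line and n = 3 arrays a group. Filled points passed the threshold: Rps4l, Rpsa, Rps19 and Rpl41 on the lower side and Rps15a on the higher side, while most intervals cross 0.

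Small subunit genes held 3 of the 5 calls: Rpsa and Rps19 fell, Rps15a rose and 18 of the 21 did not pass, with a median difference of -0.03 and a range of -0.60 to 0.33. The share called was 14.3%, beside 17.4% of all genes. Rpsa encodes a small subunit protein also known as the laminin receptor precursor. Its signal (probe set 10385034) was 12.11, 12.05 and 12.06 on DKO arrays 1 to 3 and 12.68, 12.66 and 12.69 on the WT arrays. Every DKO value lay below every WT value, and Rpsa fell by 0.60 on the log2 scale (SE 0.08, 95% interval -0.78 to -0.42, adjusted p = 0.00116), so that the WT level was 1.52 times the DKO level.

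Rps19, needed to mature the RNA of the small subunit, has 1 probe set under its name alone (10551021). Its DKO signals were 10.22, 10.34 and 10.24, and its WT signals 10.78, 10.69 and 10.71. The groups did not overlap, and Rps19 fell by 0.46 (SE 0.0845, adjusted p = 0.00562), a WT level 1.38 times that of DKO. Rpsa and Rps19 passed the threshold under all 19 alternative settings run, with differences of -0.67 to -0.39 and -0.58 to -0.41.

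Rps15a, another small subunit protein that is mutated in some Diamond-Blackfan families, was the only member called higher. It read 10.53, 10.52 and 10.66 in DKO against 10.14, 10.25 and 10.33 in WT. The groups were apart by 0.33 (SE 0.0918, adjusted p = 0.0365), a 1.26-fold rise. This call was lost without DKO replicate 1 (adjusted p = 0.0836), 2 (0.0736) or 3 (0.134) and without WT replicate 1 (0.0913) or 2 (0.0658). Its 19 alternatives gave an adjusted p of 0.0154 to 0.169 and differences of 0.21 to 0.37. With 1 array left out fewer of all genes were called higher as well, 6.27% to 9.37% against 9.71% as deposited.

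The other small subunit genes that were looked at closely did not pass. Rps14 gave 12.60, 12.55 and 12.40 in DKO and 12.70, 12.61 and 12.71 in WT, a difference of -0.16 with non-overlapping groups (95% interval -0.36 to 0.05, adjusted p = 0.285). Rps6, the substrate of S6 kinase, was at 12.72, 12.68 and 12.64 against 12.72, 12.71 and 12.69, groups that overlapped (-0.03, interval -0.21 to 0.16). Rps29 and the X-linked Rps4x were slightly higher on every DKO array. Rps29 read 12.78, 12.78 and 12.76 against 12.66, 12.67 and 12.71 (0.09, interval -0.09 to 0.27), and Rps4x 12.81, 12.79 and 12.87 against 12.67, 12.71 and 12.64 (0.14, interval -0.04 to 0.33). Fau, whose product is cut into a ubiquitin-like protein and a small subunit protein but whose symbol lies outside the rule, differed by -0.02 (adjusted p = 0.905).

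**Figure D2:**
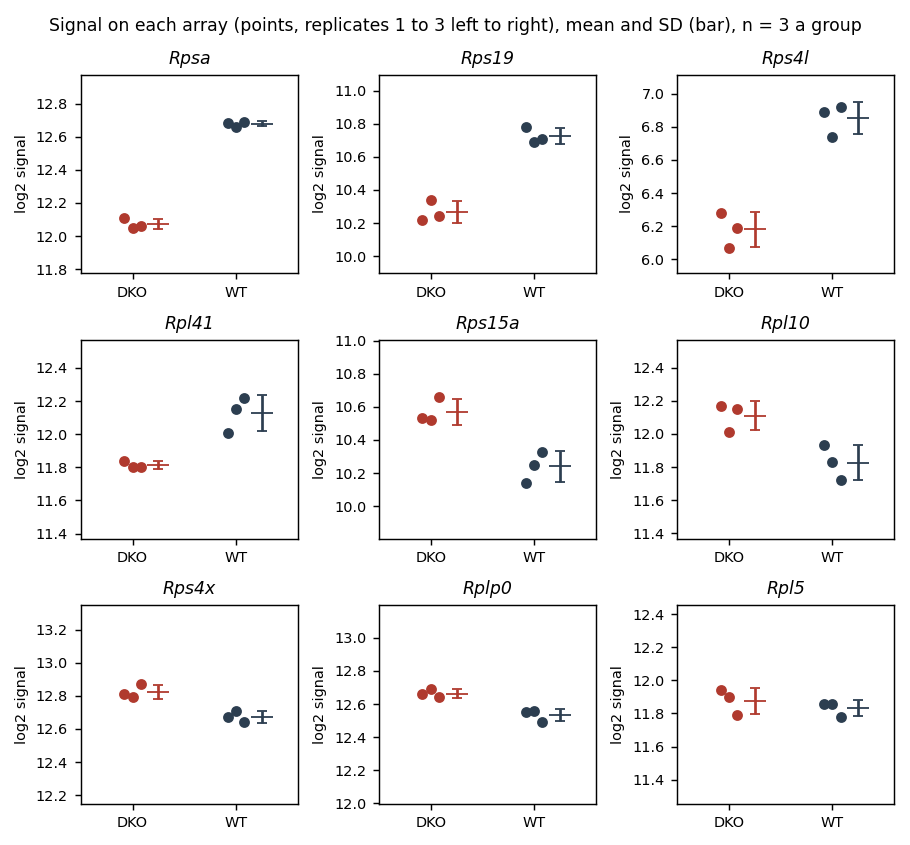
Log2 signal (y axis, 1.2 units in each panel) on the 3 DKO and 3 WT arrays for 9 members, with the mean and SD of each group as a bar. The DKO points of Rpsa, Rps19, Rps4l and Rpl41 lie below all WT points, those of Rps15a, Rpl10, Rps4x and Rplp0 above them, and those of Rpl5 overlap the WT points.

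Of the 33 large subunit genes 1 fell, 0 rose and 32 did not pass (3.03% called, beside 17.4% of all genes). The median difference was 0.00, with a range of -0.31 to 0.28. At an unadjusted p under 0.05, 7 of the 33 passed (21.2%, beside 30.9% of all genes). Rpl41, which encodes an exceptionally short, basic protein, read 11.84, 11.80 and 11.80 in DKO and 12.01, 12.15 and 12.22 in WT. The groups did not overlap and Rpl41 fell by 0.31 (SE 0.0893, adjusted p = 0.0401). The call was lost without DKO replicate 1 (0.0948), 2 (0.111) or 3 (0.118) and without WT replicate 2 (0.0821) or 3 (0.115), and the alternatives spanned 0.00759 to 0.152.

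A further 3 large subunit genes lay just outside the threshold on the higher side. Rpl10, a protein that joins the large subunit late in its assembly and is mutated in some T cell leukaemias, read 12.17, 12.01 and 12.15 in DKO and 11.93, 11.83 and 11.72 in WT. All DKO values were above the WT values by 0.28 on average (SE 0.094, 95% interval 0.07 to 0.49, adjusted p = 0.068). Rpl13 and Rpl10a, named after their values were seen, both differed by 0.24 with adjusted p = 0.0691 and groups that did not overlap. Each of the 3 passed under some alternatives, Rpl10 and Rpl13 under 6 of 19 and Rpl10a under 5, with adjusted p from 0.0187 to 0.199, 0.00746 to 0.24 and 0.00859 to 0.237.

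The stalk of the large subunit, which recruits the elongation factors, had no member past the threshold. Rplp0, its base, read 12.66, 12.69 and 12.64 in DKO and 12.55, 12.56 and 12.49 in WT, a difference of 0.13 without overlap (adjusted p = 0.308). Rplp1 lay on the other side, at 12.03, 12.09 and 12.23 against 12.31, 12.25 and 12.35 (-0.19, adjusted p = 0.195), again without overlap. Rplp2 overlapped, with 10.07, 10.12 and 10.30 against 9.92, 10.27 and 10.23 (0.02, interval -0.24 to 0.28).

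Rpl5, which with Rpl11 carries a small ribosomal RNA into the large subunit and can bind the p53 inhibitor Mdm2, read 11.94, 11.90 and 11.79 in DKO and 11.86, 11.86 and 11.78 in WT. These groups overlapped and differed by 0.04 (interval -0.15 to 0.23). Rpl22, a protein known for its need in T lymphocyte development, gave 10.08, 10.18 and 10.25 against 10.23, 10.14 and 10.24 (-0.03, interval -0.23 to 0.16). The X-linked Rpl36a was at 12.26, 12.23 and 12.20 against 12.29, 12.29 and 12.27 (-0.06, interval -0.23 to 0.12), so close that the groups did not overlap although the difference was small. Rpl12, which sits at the foot of the stalk, had the loosest replicates of the core genes, at 6.43, 6.40 and 6.80 against 6.05, 6.27 and 6.49, and its difference of 0.27 did not pass (SE 0.141, adjusted p = 0.235).

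**Figure D3:**
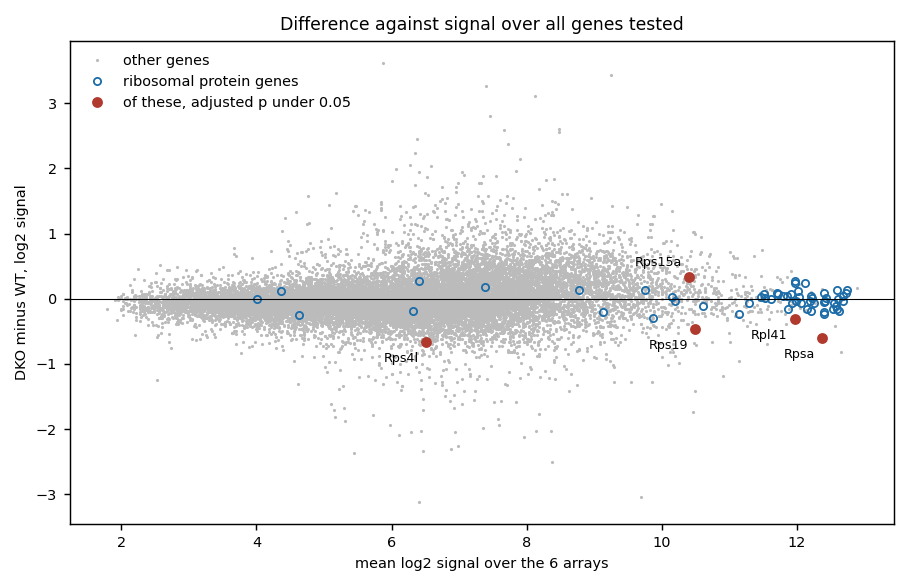
Difference between DKO and WT (y axis, log2 signal) against mean log2 signal over the 6 arrays (x axis) for all 19938 genes in grey and the 61 members as circles. Most members sit at the right end, between 11.14 and 12.75, in a narrow band around 0, and the 5 called members are filled and named.

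Among the 5 paralogs 1 fell, 0 rose and 4 did not pass (20% called, beside 17.4% of all genes). An unadjusted p under 0.05 was reached by 3 (60%, beside 30.9% of all genes). Rps4l, a relative of Rps4x that RefSeq lists as a transcribed pseudogene, gave the largest difference of any member. Its signal was 6.28, 6.07 and 6.19 in DKO and 6.89, 6.74 and 6.92 in WT (probe set 10542872), and it fell by 0.67 (SE 0.0951, interval -0.88 to -0.46, adjusted p = 0.00163). The call held in all 19 alternatives, with differences of -0.72 to -0.38. A second probe set of Rps4l (10567106) did not show it, with means of 5.84 in DKO and 5.92 in WT (-0.08, adjusted p = 0.612) and groups that overlapped, so the fall rests on 1 of its 2 probe sets.

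The difference between Rps4l and Rps4x on the same array fell by 0.82 from WT to DKO, in 3 of 3 DKO arrays below all WT arrays. An exact two-sided permutation test gave p = 0.1, the smallest that 3 arrays against 3 can give, and 0.2 after adjustment over the 2 pairs compared. With so few arrays the test could not pass a threshold of 0.05 whatever the values. Rps4l was read here from probe set 10542872 alone, and its other set differed between groups by only -0.08. The other pair, Rpl10l and Rpl10, differed by -0.16 (exact permutation p = 0.7).

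Rps27l, a paralog of Rps27 and a known p53 target, read 9.77, 9.51 and 9.88 in DKO and 10.04, 10.08 and 9.93 in WT. The groups did not overlap, and the difference of -0.30 missed the threshold (adjusted p = 0.0992, in a range of 0.0172 to 0.291, with 3 of 19 alternatives passing). Rpl3l, known from striated muscle, gave 4.56, 4.44 and 4.52 against 4.77, 4.65 and 4.85 (-0.25, adjusted p = 0.0914). Rpl10l, known from the testis, gave 4.66, 4.61 and 4.00 against 4.26, 4.42 and 4.23, and Rpl39l, also known from the testis, 4.14, 3.84 and 4.02 against 3.83, 3.94 and 4.27. Both overlapped between groups (0.12 and -0.01). Signals of these 3 genes lie near or below the lower quartile of the arrays, 4.63 to 4.66, so the sizes of their differences are uncertain. Rps23rg1, named as a retrogene of Rps23, and Rpl32l overlapped between groups and differed by -0.19 (interval -0.45 to 0.07) and 0.18 (interval -0.07 to 0.43).

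Many members had several probe sets, which gives a second look at each value. In all, 39 members had 195 probe sets and 22 had 1. These sets are not replicates, since they read the same RNA and can share probes: 19 of the 217 held values identical to another set of the same gene, among them the 3 sets of Rpl41. With all 21789 probe sets of 1 symbol tested together, 10 member sets were higher and 13 lower, from 11 genes, together 10.6% beside 17.5% of all sets (9.9% higher and 7.63% lower). The sets of a gene spanned a median of 0.12 on the log2 scale, and in 11 of the 39 genes they lay on both sides of 0.

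Rpsa lay below 0 in all 5 of its probe sets, between -0.60 and -0.14, and 4 of the 5 passed. The set with the highest signal, the one used above, gave the largest of these falls, and the next brightest gave -0.33. Rpl13 lay above 0 in all 9, between 0.24 and 0.41, and 6 passed, while the set with the highest signal, the one used above, gave the smallest of these differences. Rpl10 lay above 0 in all 6 sets, between 0.22 and 0.42 with 2 passing, and Rpl10a in all 4, between 0.23 and 0.26 with 1 passing. Rpl36 was split, with 7 of 9 sets below 0, 2 of them passing, and 2 above 0. The second set of Rps21 fell by 0.36 (adjusted p = 0.0193) and that of Rplp1 by 0.35 (adjusted p = 0.0206), while the sets with the higher signal were at -0.23 and -0.19 and did not pass. Rpl13, Rpl10a, Rpl36 and Rps21 were chosen for this after their values were seen.

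**Figure D4:**
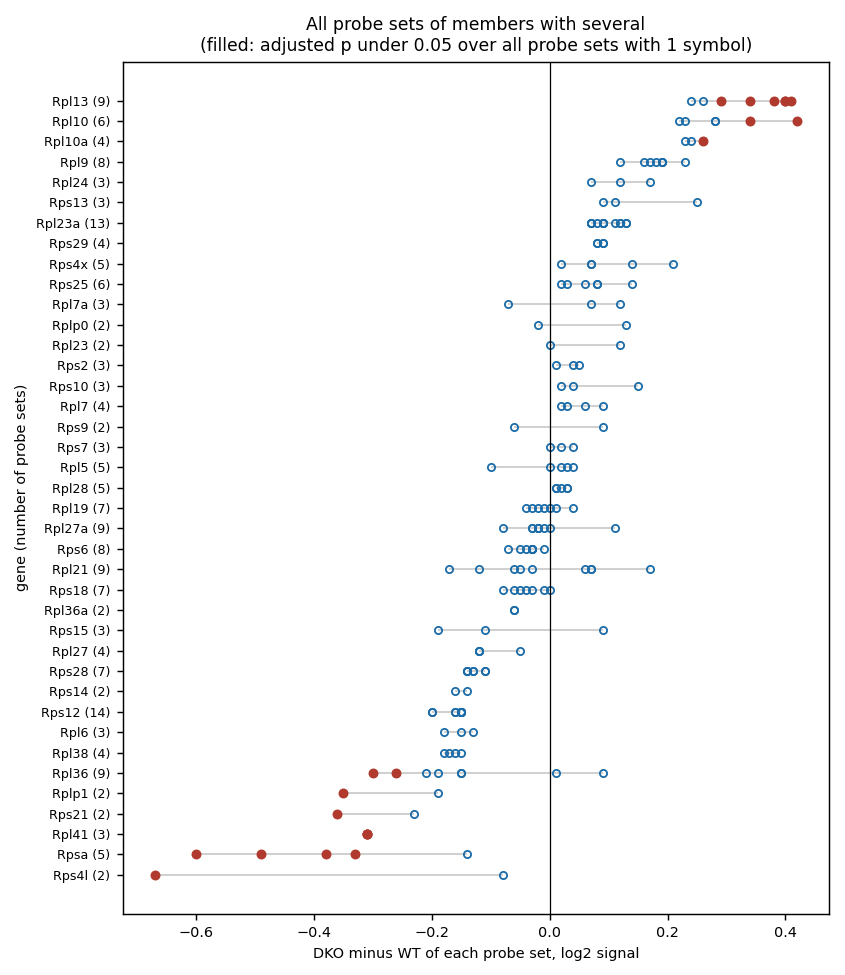
Difference between DKO and WT (x axis, log2 signal) of every probe set of the 39 members with several (y axis, number of sets in brackets), with filled points past the threshold over all probe sets of 1 symbol. All sets of Rpsa lie below 0 and all sets of Rpl13, Rpl10 and Rpl10a above it, while the 2 sets of Rps4l are far apart.

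The split of calls between directions depended on how the arrays were scaled. As deposited, 1 member was higher and 4 lower. Quantile normalisation gave 0 and 6, cyclic loess 0 and 8, and median centring 4 and 3. Over all genes the shares higher and lower were 7.96% and 7.75%, 8.61% and 7.42%, and 11.3% and 5.62% in the same order. The 4 higher under median centring were Rps15a, Rpl10, Rpl10a and Rpl13. The median difference of the members was 0.02, -0.09 and 0.03 under these scalings, and that of all genes -0.01, 0.00 and 0.01. Rpsa, Rps19 and Rps4l were lower under each of the 3.

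**Figure D5:**
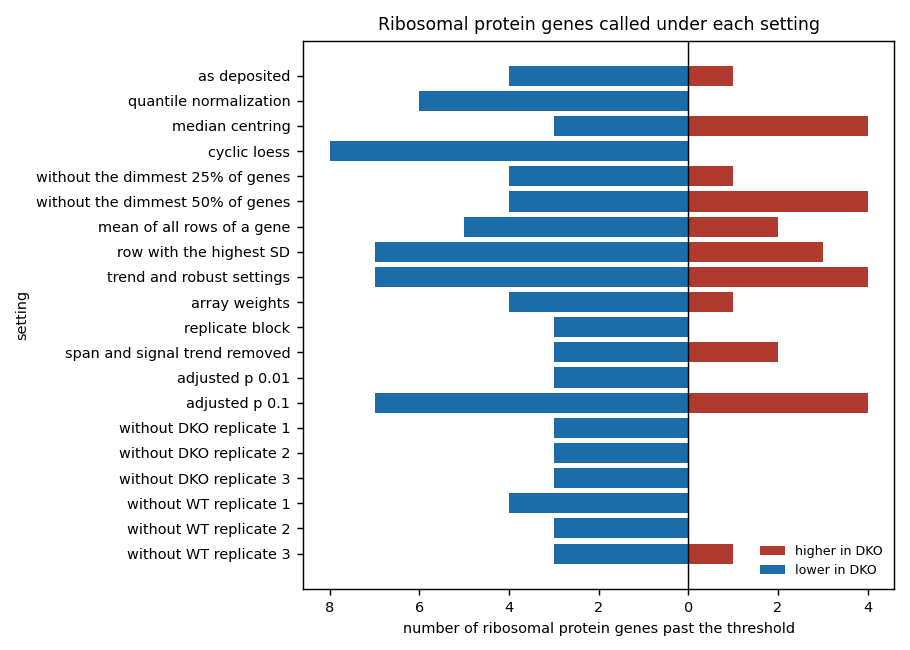
Number of ribosomal protein genes past the threshold (x axis) higher in DKO, to the right, and lower in DKO, to the left, under the deposited values and 19 alternatives (y axis). At least 3 were lower under every setting, and 0 to 4 were higher.

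Per array, the median deviation of the members from their own means over the 6 arrays was 0.002, -0.003 and -0.017 in DKO and 0.019, 0.007 and 0.02 in WT. The DKO values lie below the WT values by a few hundredths of a log2 unit, and all genes together gave -0.016, -0.011 and -0.012 against 0.024, -0.002 and 0.02. Across the 61 members the difference had a Spearman rho of -0.02 with mean signal and -0.05 with gene span, given as a description of probe sets on the same 6 arrays, beside 0.146 with span over all genes.

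Of 20 listed genes whose human counterparts are mutated in Diamond-Blackfan anaemia, 10 were measured, 1 rose (Rps15a), 1 fell (Rps19) and 8 did not pass. The share called was 20%, beside 17.4% of all genes, and the median difference was -0.01. The list was drawn up with earlier results of these data known. Of 15 measured non-ribosomal genes whose mRNAs carry the same kind of pyrimidine tract, 1 rose and 14 did not pass (6.67% called), with a median of -0.01. That one was Btf3, part of the complex that meets new chains at the ribosome, at 9.03, 9.06 and 9.17 against 8.65, 8.62 and 8.66 (0.45, adjusted p = 0.00627, lost with quantile normalisation or the mean of its probe sets, in a range to 0.128). Elongation factor Eef2 differed by -0.30 (adjusted p = 0.053), Eef1a1 by 0.16 and Eef1d by -0.16.

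Of 28 measured factors listed for translation initiation and termination 4 rose, 3 fell and 21 did not pass (25% called, beside 17.4% of all genes), with a median of 0.02. All 28 lay in the brighter 50% of genes, where 20% were higher and 12.7% lower when the dimmest 50% were left out. The 4 that rose were 2 without DKO replicate 1 or 2 or WT replicate 1 or 3, and 1 without DKO replicate 3. Over all genes the share called higher also fell, from 9.71% to 6.98%, 6.79% and 6.27% without DKO replicate 1, 2 and 3. It was 9.37% and 7.8% without WT replicate 1 and 3. Whether the share of these factors called differs from that of the ribosomal proteins was not tested. Eif4h, which aids the helicase Eif4a, fell by 0.94 (8.36 ± 0.11 against 9.30 ± 0.06, SD, n = 3, adjusted p = 0.000239). Eif5a, which helps ribosomes past stalling sequences, fell by 0.91 (8.58 ± 0.15 against 9.49 ± 0.12, adjusted p = 0.000617). It was read from the brighter of 2 probe sets, and the 19 alternatives gave -1.06 to -0.71. Eif3m, a subunit of the factor that binds the small ribosomal subunit, rose by 0.65 (adjusted p = 0.00174), and Eif2b3, of the nucleotide exchange factor for eIF2, by 0.56 (adjusted p = 0.0129, and 0.0584 without DKO replicate 3). Eif3m too was read from the brighter of 2 probe sets, and its alternatives gave 0.49 to 0.71.

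Of 15 measured genes of the mTOR pathway 2 rose, 2 fell and 11 did not pass (26.7% called, beside 17.4% of all genes), with a median of -0.04. These are single genes, and the pathway was not tested as a set. All 15 lay in the brighter 50% of genes, where 20% were higher and 12.7% lower when the dimmest 50% were left out. The 2 that rose were 1 without DKO replicate 1 or 2 or WT replicate 3, and 0 without DKO replicate 3. The share of all genes called higher fell there as well, from 9.71% to between 6.27% and 7.8%. The kinase gene Akt1 fell by 0.65 (adjusted p = 0.00241) and Akt1s1, an mTOR inhibitor that Akt phosphorylates, by 0.50 (adjusted p = 0.00653). Deptor, another mTOR inhibitor, rose by 0.57 (adjusted p = 0.014, and 0.0591 and 0.0546 without DKO replicate 1 or 3). Rictor, which defines the second mTOR complex, rose by 0.46 (adjusted p = 0.0222). Its call was lost without DKO replicate 2 (0.0566) or 3 (0.0913) or WT replicate 3 (0.0603), and with the span and signal trend removed, where the difference was 0.27 (0.121). Larp1 itself, named after its value was seen, differed by -0.26 (adjusted p = 0.0725).

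The targeted genes do not check the labels on these arrays, because gene-level signals can include probes outside the deleted exons. Runx1 rose by 0.82 against its label, from 8.47 ± 0.08 to 9.29 ± 0.08 (SD, n = 3, adjusted p = 0.000427), and Runx3 differed by -0.15 (adjusted p = 0.253). DKO therefore means the samples so labelled, and every direction is that of the labels. Correlations between arrays over all genes were 0.989 to 0.995 within groups and 0.976 to 0.98 between them. Kit, the sort marker measured, was at 10.49 ± 0.20 in DKO and 9.75 ± 0.11 in WT, and the gene of Sca1, Ly6a, is not analysed here. Among genes of stem and progenitor cells Kit and Slamf1 rose, Flt3 fell and Cd34 did not pass, and Ptprc, which encodes the CD45 of nearly all leukocytes, rose.

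The markers of other cells that passed the test were all lower in DKO. The mean signal of 7 erythroid genes was 6.40 to 6.70 on the DKO arrays and 6.78 to 6.96 on the WT arrays, that of 7 B cell genes 5.25 to 5.30 and 5.39 to 5.46, that of 8 T and NK cell genes 4.76 to 4.93 and 5.08 to 5.16, and that of 8 mature myeloid genes 5.25 to 5.27 and 5.39 to 5.82. Of these, 2, 1, 1 and 1 fell and 0 rose. The shares called were 28.6%, 14.3%, 12.5% and 12.5%, beside 17.4% of all genes (7.69% as lower). Single genes carry much of the erythroid and the T and NK cell means, where Car1 and Nkg7 each fell by 2.02. The other genes that passed were Klf1 (erythroid, -0.54, adjusted p = 0.0136), Blnk (B cells, -0.58, 0.00654) and Ccr2 (myeloid, -0.75, 0.00322). The median differences of the 4 lists were -0.04, -0.13, -0.05 and -0.24, beside -0.04 over all genes. In the same order, 3 of 7, 2 of 7, 3 of 8 and 1 of 8 genes lay above 0, and 4, 5, 5 and 7 below. Those above 0 included Alas2 (0.09), Gata1 (0.07), Cd3e (0.06) and Cd3d (0.18), none of which passed. Array signals have no true zero. The ranges of the 4 means did not overlap between groups, and the part of these markers in the ribosomal protein results was not tested.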

How the data were processed

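Signals came from Affymetrix GeneChip Mouse Gene 1.0 ST arrays hybridised with amplified KSL cell RNA, per the labels' protocols. The deposited values are log2 gene-level signals made by the authors. The sample titles name the RMA gene-level default, the design text MAS 5.0, and the submitters' processing notes Affymetrix Expression Console 1.0. Array medians were 5.88 to 5.91. For the genome build and the background settings nothing was stated.

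Of 35556 probe sets, 21789 had 1 gene symbol, 1621 several and 12146 none. Probe sets with several symbols were left out, including 16 core ribosomal protein genes found only there, which with 8 not listed are not analysed here. The 2 groups were fitted in R 4.3.3 with limma 3.58.1 (lmFit, eBayes, two-sided, threshold 0.05), and the script was tested on simulated data. The members, lists and tests were chosen with earlier results of these data known. Values on all arrays are given for the called members, paralogs and their core partners, stalk and Rpl5, Rps14 and Rps19, and the 3 brightest, 3 dimmest and 3 most variable members. In other lists up to 4 genes with the smallest p are named. Alternatives were other normalisations, filters on dim genes, choices of probe set, variance models, weights per array, a replicate block, removal of a trend over gene span and signal, thresholds of 0.01 and 0.1, and leaving out each array. Precision is limited by the number of arrays.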

Additional observations from a re-analysis of the deposited data

How the results depend on the processing

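Of the 5 calls, Rpsa, Rps19 and Rps4l passed under all 19 alternatives, while Rps15a was lost in 10 and Rpl41 in 9. No member changed sign while past the threshold. The cause of the changes below was not tested. Counts of members higher and lower in DKO, 1 and 4 as deposited, were 0 and 6 with quantile normalisation, 4 and 3 with median centring, 0 and 8 with cyclic loess (median difference -0.09), 4 and 4 without the dimmest 50% of genes, 2 and 5 with the mean of all probe sets, 3 and 7 with the most variable probe set, 4 and 7 with trend and robust settings, 2 and 3 with the span and signal trend removed, 0 and 3 at 0.01 and 4 and 7 at 0.1. Over all genes, 10% were higher and 7.81% lower with trend and robust settings, and 9.89% and 7.68% with the most variable probe set. Under these 2 settings the share of members called was close to that of all genes. Without the dimmest 50% of genes 58 members were left, and 20% of the genes kept were higher and 12.7% lower. With the mean of all probe sets 9.73% of all genes were higher and 7.66% lower, and with the trend removed 7.49% and 7.61%. These shares were 5.31% and 2.95% at 0.01 and 12.6% and 11.5% at 0.1. Shares under the 3 scalings are given above. With the replicate number as a block the counts of members were 0 and 3, beside 8.89% and 6.38% of all genes. Same-numbered samples did not deviate together (correlations of -0.10, -0.04 and -0.01). These values cannot tell whether samples were collected or processed in pairs. Leaving out 1 array gave 0 to 1 higher (0 for each array but WT replicate 3) and 3 to 4 lower. Over all genes 6.27% to 9.37% were then higher and 4.23% to 6.96% lower, beside 9.71% and 7.69% as deposited.

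Small subunit genes higher, 1 as deposited, were 0 with quantile normalisation, cyclic loess, the block, the trend removed or 0.01, and 0 to 1 without 1 array, and the Diamond-Blackfan list gave the same numbers. Those lower, 2 as deposited, were 4 with trend and robust settings. Large subunit genes higher, 0 as deposited, were 3 with median centring, without the dimmest 50%, with trend and robust settings or at 0.1, 2 with the most variable probe set or the trend removed and 1 with the mean of probe sets. Those lower, 1 as deposited, were 2 with quantile normalisation or trend and robust settings, 3 with cyclic loess or the most variable probe set, 0 with median centring, the block, the trend removed or 0.01, and 0 to 1 without 1 array (0 for each but WT replicate 1). Paralogs lower, 1 as deposited, were 2 with quantile normalisation or cyclic loess and 3 at 0.1, and 1 stalk gene was lower with the most variable probe set.

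Initiation and termination factors higher, 4 as deposited, were 2 with quantile normalisation, cyclic loess, the block or the trend removed, 1 at 0.01, and 1 to 4 without 1 array (1 without DKO replicate 3, 2 without DKO replicate 1 or 2 or WT replicate 1 or 3). Those lower, 3 as deposited, were 6 with quantile normalisation and 5 with cyclic loess or the trend removed. Genes of the mTOR pathway higher, 2 as deposited, were 1 with the trend removed, 0 at 0.01 and 0 to 3 without 1 array (1 without DKO replicate 1 or 2 or WT replicate 3, 0 without DKO replicate 3), and those lower, 2 as deposited, were 4 with quantile normalisation, without the dimmest 50% or at 0.1. Other genes with a pyrimidine tract that were higher, 1 as deposited, were 0 with quantile normalisation or the mean of probe sets. Those lower, 0 as deposited, were 2 with cyclic loess and 1 with quantile normalisation, without the dimmest 25% or 50%, with trend and robust settings, with the trend removed or at 0.1.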
